A study of Mus musculus with 6 samples.

Results

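Mdm2, the gene of the main ubiquitin ligase of p53, was among the most abundant transcripts of these cells. It is described here with 9 other genes, of which Slc35e3 is its chromosomal neighbour. The rest are of the p53 circuit: the Mdm2 relative Mdm4, Trp53 itself, and the p53 target genes Ccng1, Trp53inp1, Zmat3, Phlda3, Sesn1 and Plk2. The 10 genes were taken by name from the 54532 genes of the deposited table, and all 10 were among the 13728 genes with enough reads to test. The members were selected on measured values of these libraries. Which values were used is not recorded, so both their levels and their differences between the groups are treated as used. Both are therefore given as descriptions without a test, and tests are given only for other genes. RNA was sequenced from 6 libraries of 3T3 cells, a mouse fibroblast line labelled as wild-type adipocytes. Of these, 3 had received the solvent DMSO and 3 had received 200 µM baicalin, a flavone glucuronide of Scutellaria roots. The labels give neither the clone, nor how the cells were turned into adipocytes, nor the length of treatment. Nothing in them says that replicates came from separate cultures, so the p-values measure the spread between these libraries, which may be technical.

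The p53 protein is a transcription factor that halts the cell cycle, promotes DNA repair or starts cell death after damage and other stresses. MDM2 binds it, blocks its activity and marks it for degradation, and p53 in turn switches on the Mdm2 gene, which closes a feedback loop. MDM4 lacks strong ligase activity of its own but binds both proteins and adds to the inhibition. Mdm2 was first isolated as amplified DNA from a transformed derivative of 3T3 cells. DNA copy number was not measured here.

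The libraries held between 16730594 and 18326874 reads counted to genes. Of 9 markers of fat cells 7 were tested, of which 6 were called lower in baicalin and 1 was not called (34.1% of all genes tested were called lower, 33.6% higher and 67.7% in either direction), and the adipokine Lep and the glucose transporter Slc2a4 stood at no more than 0.0919 CPM on average in either group. Of 6 markers of fibroblasts and preadipocytes 5 were lower and 1, Thy1, higher. Summed over each list, FPKM values ran from 234 to 263 in DMSO and from 121 to 124 in baicalin for the fat cell markers. Most of that sum came from Lpl and Fabp4, at 139 and 96.5 FPKM in DMSO and 47.7 and 67.5 in baicalin. Every other fat cell marker averaged at most 6.01 FPKM in DMSO, with Adipoq at 1.21. For the fibroblast markers the sums ran from 1519 to 1610.5 in DMSO and from 1040.0 to 1075 in baicalin. Markers of leukocytes, endothelium and epithelium summed to at most 3.06, 0.107 and 0.0294 FPKM in any library, with Epcam and Cdh1 at 0. In bulk RNA fewer cells of a kind and less RNA per cell cannot be told apart, and the part of the marker shifts in the values below was not tested.

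Mdm2 (ENSMUSG00000020184) lies on the minus strand of chromosome 10 of the mm10 assembly, from 117688875 to 117710758. Its level was 1466, 1506 and 1521 FPKM in the DMSO libraries and 1192, 1250.0 and 1238 FPKM in the baicalin libraries. FPKM, fragments per kilobase of gene scaled by a size for each library, was computed by the authors. It allows levels to be set beside each other between genes. As derived from the reads, exon length and FPKM of Mdm2, that size was not the total of counted reads. It lay above that total in the DMSO libraries and below it in the baicalin libraries. By FPKM Mdm2 ranked 11, 11 and 10 among all genes in DMSO, and 25, 21 and 23 in baicalin. It was in every library among the 25 most abundant of 54532 genes. Averaged over the 6 libraries it stood at 1362 FPKM, against a median of 5.49 FPKM over all genes tested, a ratio of 248. Its reads alone made up 0.788% ± 0.018 of all counted reads in DMSO. In baicalin the share was 0.586% ± 0.024 (SD, n = 3 in both groups).

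Slc35e3 (ENSMUSG00000060181, chromosome 10, 117733679 to 117746365, minus strand), which encodes a member of a nucleotide-sugar transporter family, is the next gene beyond the start of Mdm2. Its level was 1056, 1082 and 1071 FPKM in DMSO and 973, 1014 and 1001 FPKM in baicalin. It ranked between 20 and 21 in the DMSO libraries and between 29 and 34 in the baicalin libraries. Mdm2 and Slc35e3 are thus side by side on the chromosome and were near each other in level. Together they took 1.18% ± 0.023 of the reads of a DMSO library, and 0.916% ± 0.037 of those of a baicalin library (SD, n = 3). The Slc35e3 reads carry some uncertainty, because the processed pseudogene Gm7902 on chromosome 5 matches its transcript over 427 bases at 99.3% identity. Gm7902 held 5766 reads over the 6 libraries, against 380624 for Slc35e3, and a further match, Gm7341, held 27. No other gene's transcript matched that of Mdm2 over 100 bases at 95% identity.

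The promoters of these genes are shown because they are the most highly expressed of the 10. Each runs from 250 bases before to 50 bases after the annotated start, from RefSeq on GRCm38.p6, and capitals mark an exact match to the p53 half-site of 10 bases.

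Mdm2 promoter, chr10:117710709-117711008, minus strand: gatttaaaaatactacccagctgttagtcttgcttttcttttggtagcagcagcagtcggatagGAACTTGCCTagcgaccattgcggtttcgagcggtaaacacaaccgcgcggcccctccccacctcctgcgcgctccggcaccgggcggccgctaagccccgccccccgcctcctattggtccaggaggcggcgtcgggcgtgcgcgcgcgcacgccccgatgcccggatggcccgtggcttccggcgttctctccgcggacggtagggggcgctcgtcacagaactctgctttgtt

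Slc35e3 promoter, chr10:117746309-117746608, minus strand: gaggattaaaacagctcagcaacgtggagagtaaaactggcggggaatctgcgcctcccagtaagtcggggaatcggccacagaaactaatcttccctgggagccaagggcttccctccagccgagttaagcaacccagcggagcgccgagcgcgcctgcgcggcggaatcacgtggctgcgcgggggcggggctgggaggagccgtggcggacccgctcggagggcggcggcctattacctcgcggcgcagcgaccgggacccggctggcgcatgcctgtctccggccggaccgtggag

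Both are rich in G and C, at 64.7% for Mdm2 and 68.0% for Slc35e3, beside a median of 52.7% over all 32817 promoters of the table. The Mdm2 window holds 1 exact half-site, which begins 186 bases before the start, and the Slc35e3 window holds none. Among the other members, the windows of Trp53 and Ccng1 and the second window of Sesn1 also hold 1 exact half-site each. An exact half-site was found in 8.36% of all promoters of this length. The p53 response elements known for Mdm2 lie in its first intron, outside this window.

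**Figure D1:**
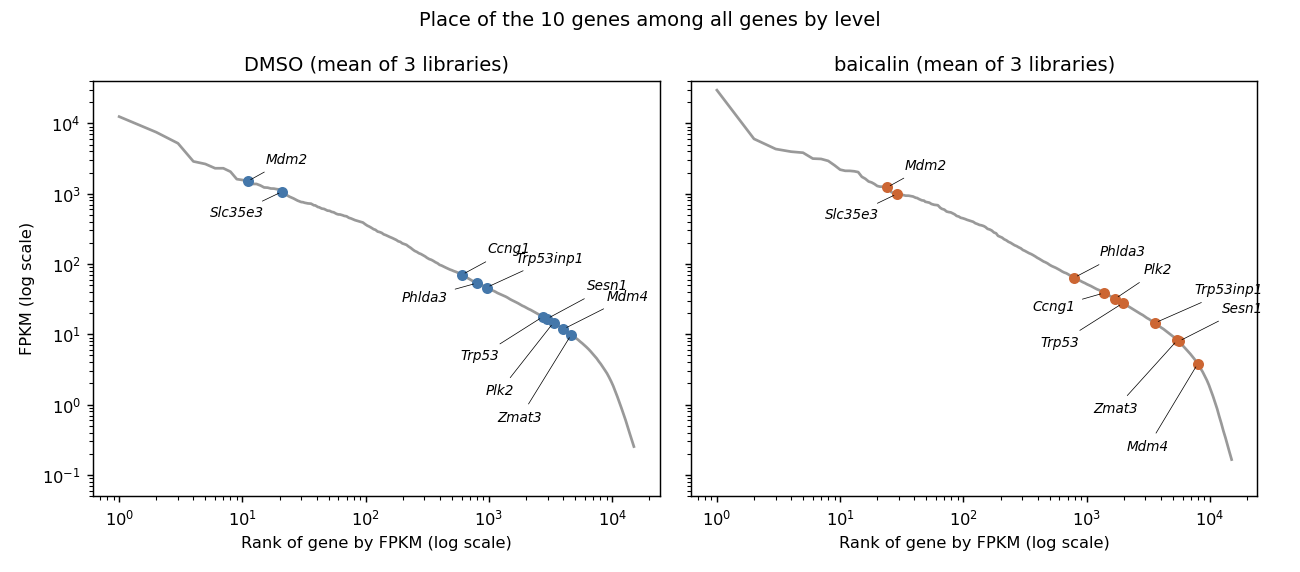
Level in FPKM (log scale) against rank among all genes (log scale), for the mean of the 3 DMSO libraries (left) and of the 3 baicalin libraries (right). The grey line follows the level by rank among all genes, drawn at selected ranks up to 15000, and the points mark the 10 named genes. Mdm2 and Slc35e3 lie at ranks 11 and 21 in DMSO and 24 and 29 in baicalin, while the other 8 lie at rank 603 or beyond.

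The genes of closest level were found by the distance between log2(FPKM + 1) values over the 6 libraries. They were C3, a complement component (distance 0.28), Rps3a1, a ribosomal protein (0.36), Psap, the precursor of lysosomal saposins (0.39), Mt1, a metallothionein (0.82), and Eef2, the translation elongation factor (0.93). The level of Mdm2 was thus close to that of genes for secreted, ribosomal and lysosomal proteins. Other enzymes that attach ubiquitin to p53 were far lower. The highest of them, Ube4b, averaged 20.15 FPKM, followed by Huwe1 at 19.6 FPKM, so that Mdm2 stood 67.6 times above Ube4b. Rchy1 averaged 9.03, Trim24 7.97, Cop1 3.12 and Cul9 0.837 FPKM. Cdkn2a, whose products include ARF, the inhibitor of MDM2, averaged 371 FPKM and ranked 116. The gene's count does not separate ARF from its other product, INK4A.

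The genes on both sides of the pair were at ordinary levels. Of the 59 other annotated genes within 1 Mb of Mdm2, 38 had any read and 15 passed the count filter. These 15 ranged from 0.197 to 97.0 FPKM with a median of 4.97 FPKM, close to the median of all genes tested. Mdm2 stood 274 times and Slc35e3 208 times above that median of the neighbours. On the far side of Mdm2, Cpm, which encodes carboxypeptidase M, ends 1522 bases from Mdm2 on the opposite strand. It had 1.75 ± 0.21 FPKM in DMSO, and 0.971 ± 0.163 FPKM in baicalin (SD, n = 3), so that Mdm2 was 1002 times higher on average. Beyond Slc35e3, the nuclear pore gene Nup107 had 8.73 ± 0.10 FPKM in DMSO, and 8.21 ± 0.23 FPKM in baicalin, and Slc35e3 was 122 times higher. No annotated gene lies in the 22920 bases between Mdm2 and Slc35e3. The highest neighbour was the chaperonin subunit gene Cct2 at 97.0 FPKM, followed by the small GTPase gene Rap1b at 51.9 FPKM.

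**Figure D2:**
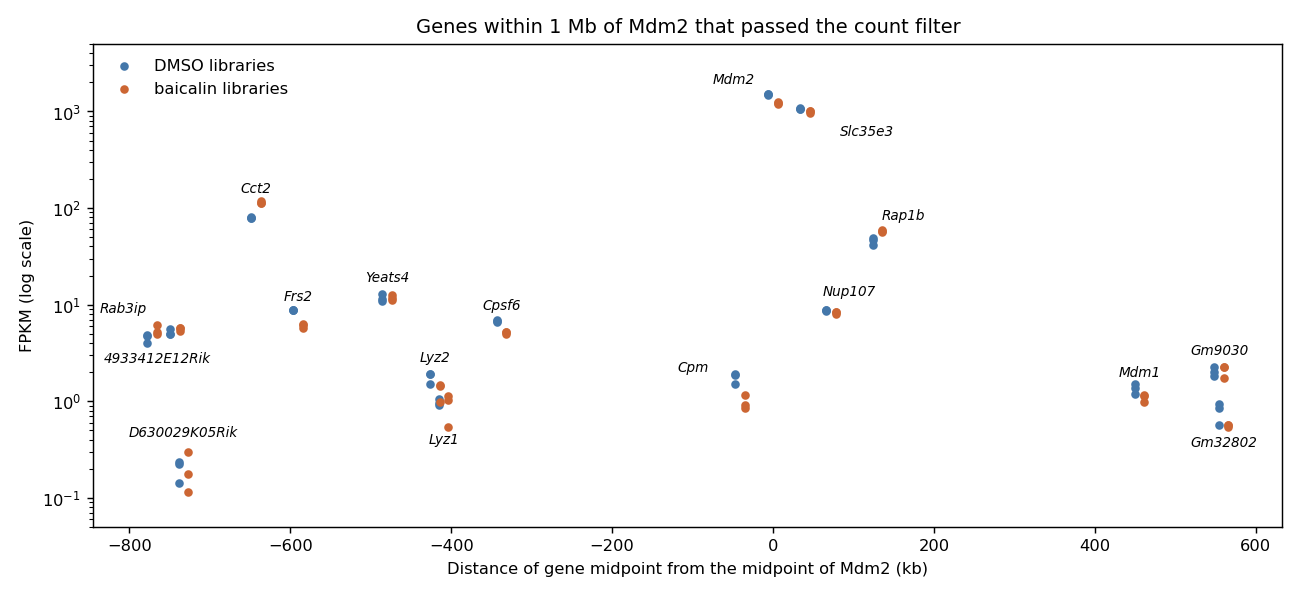
FPKM (log scale) of each gene within 1 Mb of Mdm2 that passed the count filter, by the distance of its midpoint from that of Mdm2. Each point is 1 library, with DMSO (blue) and baicalin (orange) drawn slightly apart. Mdm2 and Slc35e3 average 1362 and 1033 FPKM, and the neighbours lie at 97.0 FPKM or less on average.

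Calls among the neighbours went both ways. In edgeR's quasi-likelihood test with Benjamini-Hochberg adjustment over all genes, 3 of the 15 were higher in baicalin, 3 lower and 9 not called. Their median log2 fold change was -0.10, beside 0.00 for all genes tested. Across all genes tested, 33.6% were called higher and 34.1% lower, against 20% of the neighbours in each direction. The calls higher were those of Cct2 (log2 fold change 0.51, SE 0.04, adjusted p = 4.75e-17), Rap1b (0.33, SE 0.05, adjusted p = 4.95e-08) and Rab3ip (0.24, SE 0.10, adjusted p = 0.0317). The calls lower were those of Cpm (-0.86, SE 0.14, adjusted p = 2.75e-07), the FGF receptor adaptor gene Frs2 (-0.55, SE 0.05, adjusted p = 1.41e-13) and the polyadenylation factor gene Cpsf6 (-0.41, SE 0.05, adjusted p = 1.11e-09). Mdm1, Nup107, Yeats4, Lyz1, Lyz2, 4933412E12Rik, D630029K05Rik, Gm9030 and Gm32802 were not called, with log2 fold changes from -0.50 to 0.11. With trends on transcript length and GC content removed, Cpsf6 was called higher (0.19, adjusted p = 7.82e-04). The call of Rab3ip was lost, among other alternatives, with DESeq2 (adjusted p = 0.0887), without DMSO replicate 1 (0.198) and without baicalin replicate 1 (0.182).

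Between the groups, the Mdm2 and Mdm4 transcripts were lower in baicalin and that of p53 itself was higher. Counts were scaled here to library size by the trimmed mean of M-values (TMM-scaled CPM) for comparison of a gene between libraries. Mdm2 had 7375, 7601 and 7688 CPM in DMSO and 5919, 6273 and 6187 CPM in baicalin. All baicalin libraries lay below all DMSO libraries, 1.23-fold lower on average (log2 fold change -0.30, SE 0.04). Slc35e3 had 3686, 3789 and 3756 CPM in DMSO and 3350, 3531 and 3473 CPM in baicalin. Its groups did not overlap either, but the difference was smaller (1.085-fold, log2 fold change -0.12, SE 0.04). It was -0.24 with library size alone, -0.19 with trends on transcript length and GC content removed and -0.08 without the count filter. The FPKM ratio of Mdm2 to Slc35e3 within a library was 1.39, 1.39 and 1.42 in DMSO and 1.23, 1.23 and 1.24 in baicalin, so the ratio was not constant.

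Mdm4 (ENSMUSG00000054387, chromosome 1, 132959484 to 133030561, minus strand) showed a larger difference. It had 170, 178 and 175 CPM in DMSO and 48.6, 61.0 and 56.6 CPM in baicalin, 3.15-fold lower (log2 fold change -1.65, SE 0.06). All DMSO libraries lay far above all baicalin libraries. The difference of Mdm4 was -1.27 with the length and GC trends removed. Trp53 (ENSMUSG00000059552, chromosome 11, 69580359 to 69591873, plus strand) had 74.9, 70.0 and 69.4 CPM in DMSO and 120.1, 103 and 107 CPM in baicalin, 1.54-fold higher (log2 fold change 0.62, SE 0.05). The groups were again apart, with baicalin replicate 1 the highest. The pseudogene Trp53-ps on chromosome 17 matches the Trp53 transcript over 353 bases at 97.7% identity, and held 147 reads over all libraries against 9521 for Trp53.

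Within each library Mdm2 exceeded its partners many times over. In FPKM, Mdm2 was 126 ± 1.83 times as high as Mdm4 in DMSO, and 324 ± 28.2 times as high in baicalin (SD, n = 3). It was 84.3 ± 5.22 times as high as Trp53 in DMSO and 44.6 ± 4.83 times in baicalin. The excess over Mdm4 was therefore larger in baicalin and that over Trp53 smaller. Mdm4 stood at 0.669 ± 0.043 of the Trp53 level in DMSO and at 0.139 ± 0.026 in baicalin. These ratios depend on the gene lengths behind the FPKM values, and the exons of Mdm4 together span 14798 bases, against 5083 for Mdm2. They concern transcripts only, since protein was not measured.

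**Figure D3:**
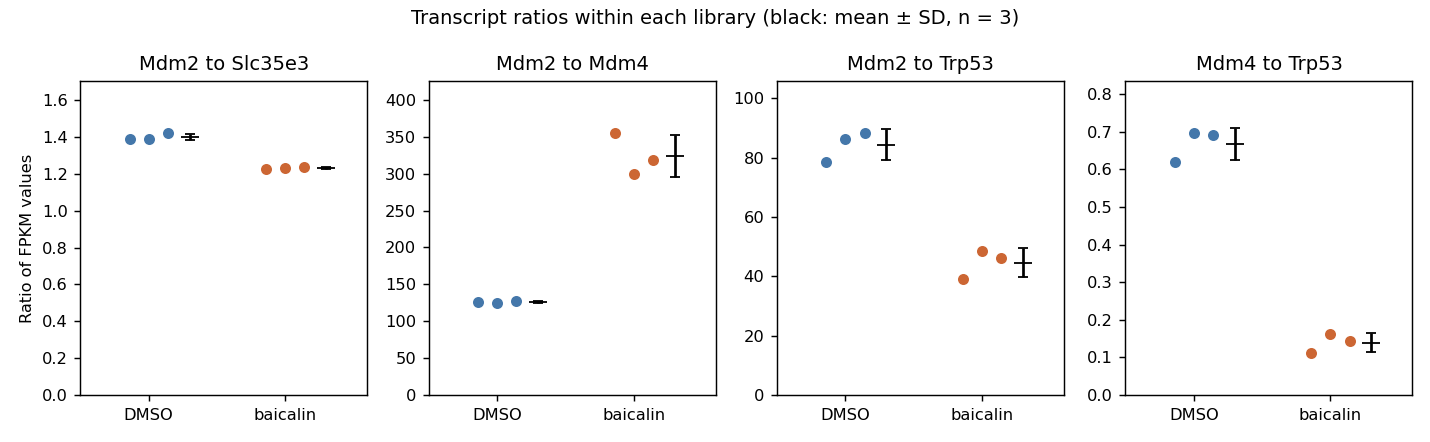
Ratios of FPKM values within each library, for Mdm2 to Slc35e3, Mdm2 to Mdm4, Mdm2 to Trp53 and Mdm4 to Trp53, each axis starting at 0. Points are libraries, black marks the mean ± SD (n = 3). The groups do not overlap in any of the 4 ratios, and the ratio to Mdm4 is the 1 that is higher in baicalin.

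The 6 p53 target genes went in different directions. Trp53inp1 (ENSMUSG00000028211, chromosome 4, 11156431 to 11174379), which encodes a stress protein that supports p53 activity and autophagy, had 296, 304.5 and 292 CPM in DMSO and 92.6, 94.5 and 89.8 CPM in baicalin, 3.22-fold lower (log2 fold change -1.69, SE 0.04). Sesn1 (ENSMUSG00000038332, chromosome 10, 41809935 to 41908424), a sestrin that restrains the growth kinase complex mTORC1, had 70.6, 63.2 and 62.7 CPM in DMSO and 32.4, 31.7 and 29.0 CPM in baicalin, 2.11-fold lower (log2 fold change -1.08, SE 0.06). Ccng1 (ENSMUSG00000020326, chromosome 11, 40748552 to 40755311), whose product cyclin G1 binds the phosphatase PP2A and acts on MDM2, had 241, 248 and 246 CPM in DMSO and 131, 136 and 134 CPM in baicalin, 1.83-fold lower (log2 fold change -0.87, SE 0.04). For these 3 genes the DMSO libraries lay close together and far above all baicalin libraries. With the length and GC trends removed, Trp53inp1 was at -1.17, Sesn1 at -1.12 and Ccng1 at -0.62 (log2).

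Zmat3 (ENSMUSG00000027663, chromosome 3, 32334792 to 32366014), which encodes an RNA-binding zinc finger protein, differed little, with 107, 113 and 116 CPM in DMSO and 97.3, 88.0 and 92.0 CPM in baicalin (log2 fold change -0.28, SE 0.05). Its groups did not overlap, but the difference was -0.01 with the length and GC trends removed. Phlda3 (ENSMUSG00000041801, chromosome 1, 135766119 to 135769136), which encodes a pleckstrin homology protein that keeps the kinase AKT from the membrane, had 77.0, 80.1 and 91.4 CPM in DMSO and 96.7, 98.8 and 98.6 CPM in baicalin (log2 fold change 0.24, SE 0.05). DMSO replicate 3 came close to the baicalin libraries, and with the same trends removed the difference was -0.058. The largest difference upward was that of Plk2 (ENSMUSG00000021701, chromosome 13, 110395046 to 110400844), a polo-like kinase of the stress response. It had 66.4, 64.1 and 66.4 CPM in DMSO and 134, 146 and 145 CPM in baicalin, 2.15-fold higher (log2 fold change 1.11, SE 0.05), with no overlap between the groups.

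**Figure D4:**
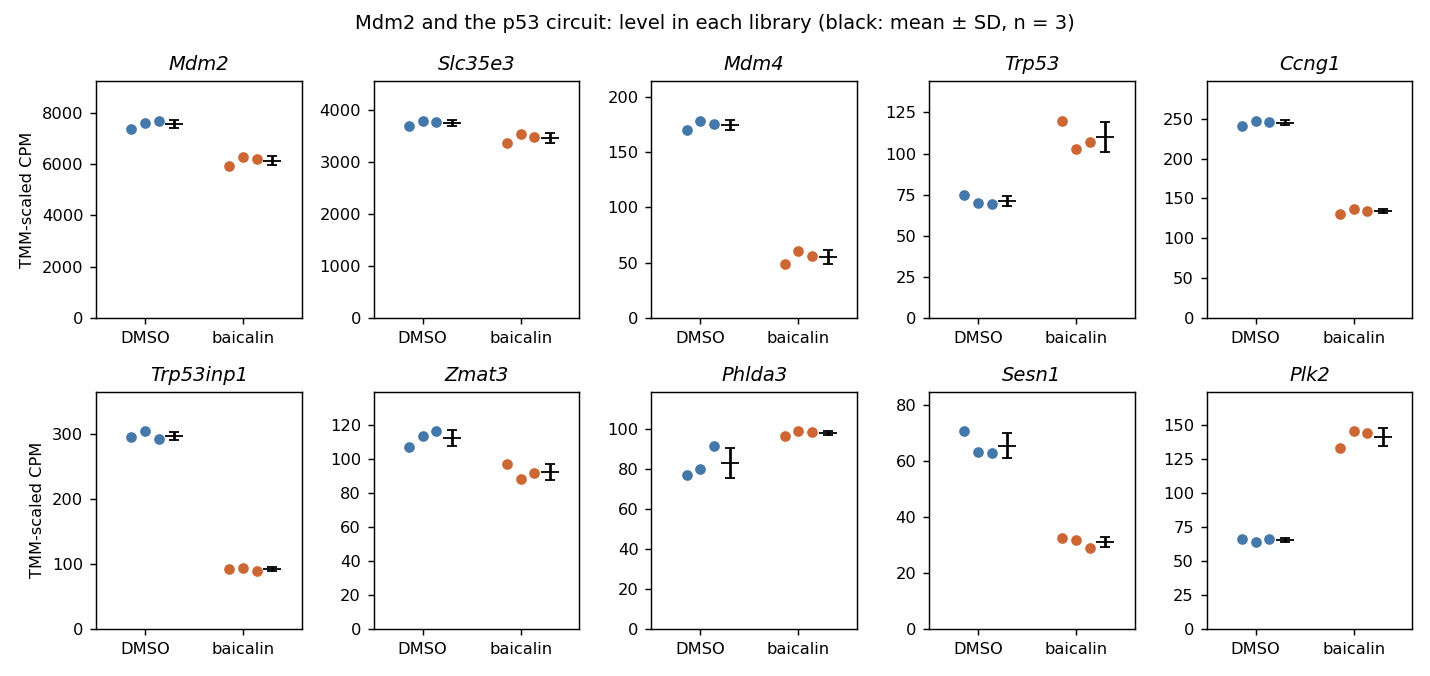
TMM-scaled CPM of the 10 genes in each library, each axis starting at 0. Points are libraries of DMSO (blue) and baicalin (orange), black marks the mean ± SD (n = 3). Trp53, Phlda3 and Plk2 are higher in baicalin and the other 7 lower. With the length and GC trends removed Phlda3 is at -0.058 (log2).

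In all, 7 of the 10 genes were lower and 3 higher in baicalin without overlap between the groups. Of all genes tested, 70.2% had groups that did not overlap, with 35.1% lower and 35.1% higher, and 67.7% were called in either direction. The members' median log2 fold change was -0.29, beside 0.00 for all genes tested. Nothing is read from the members' count or median, since these differences may have served to select them. The order of the levels also changed. In DMSO, after Mdm2 and Slc35e3, Ccng1 led with 69.4 to 71.0 FPKM, above Phlda3 with 49.9 to 58.9 and Trp53inp1 with 45.4 to 47.4. Trp53, with 17.25 to 18.7 FPKM, and Sesn1, with 15.85 to 17.9, overlapped each other, and Plk2 (14.4 to 14.9), Mdm4 (11.6 to 12.1) and Zmat3 (9.47 to 10.2) followed. In baicalin Phlda3 led with 63.5 to 64.3 FPKM, above Ccng1 with 38.2 to 39.3 and Plk2 with 30.5 to 32.9. Trp53, at 25.75 to 30.4 FPKM, came next, Zmat3 (7.80 to 8.71) and Sesn1 (7.41 to 8.34) overlapped, and Mdm4 was lowest at 3.36 to 4.18. Trp53inp1 lay between, at 14.1 to 14.8 FPKM.

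The promoters of 8 of the 10 genes were in the RefSeq table, as 10 windows, and were searched for the full p53 response element. This is a pair of half-sites on either strand with up to 13 bases between them, read here with at most 2 mismatches outside the fixed C and G of each half-site. Of all promoters 4.09% hold such a match. Among the 10 windows it was found in that of Ccng1 and in 1 of the windows of Sesn1, which are shown with the half-sites in capitals.

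Ccng1 promoter, chr11:40755237-40755536, minus strand: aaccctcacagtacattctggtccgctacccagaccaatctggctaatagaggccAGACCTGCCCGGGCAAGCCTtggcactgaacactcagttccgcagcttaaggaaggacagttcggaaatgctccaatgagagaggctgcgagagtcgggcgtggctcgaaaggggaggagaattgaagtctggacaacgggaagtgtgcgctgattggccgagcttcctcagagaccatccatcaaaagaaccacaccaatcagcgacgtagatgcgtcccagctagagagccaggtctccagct

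Sesn1 second promoter, chr10:41887189-41887488, plus strand: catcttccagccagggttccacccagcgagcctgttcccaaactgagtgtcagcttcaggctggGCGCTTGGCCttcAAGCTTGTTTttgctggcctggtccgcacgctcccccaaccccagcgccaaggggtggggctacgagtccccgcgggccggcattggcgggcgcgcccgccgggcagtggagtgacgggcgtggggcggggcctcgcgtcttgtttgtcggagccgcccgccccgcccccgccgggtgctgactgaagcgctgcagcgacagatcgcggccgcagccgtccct

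The match in Ccng1 begins 195 bases before the start, has no spacer and 1 mismatch. That in Sesn1 begins 186 bases before the start, with a spacer of 3 bases and 2 mismatches. Both genes were lower in baicalin (log2 fold changes -0.87 and -1.08), and 34.1% of all genes tested were called lower. Among members searched without a match, Mdm2, Slc35e3 and Mdm4 were also lower (-0.30, -0.12 and -1.65). Trp53, Phlda3 and Plk2, also without a match, were higher (0.62, 0.24 and 1.11). Whether a match goes with a direction was not tested. A match describes these letters and not binding of p53.

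The rest of the p53 pathway, taken from lists of textbook targets and regulators, was split. Of 37 other targets 34 were tested, and 12 were called higher, 13 lower and 9 not called in edgeR's quasi-likelihood test. The median log2 fold change was -0.01. The shares, 35.3% higher and 38.2% lower, were near those of all genes tested (33.6% and 34.1%). Among genes of metabolism and stress defence 6 of 10 were higher and 2 lower, and among genes of DNA repair and nucleotide supply 4 of 7 were lower and 3 not called. The difference between these lists was not tested.

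Among targets that halt the cell cycle, 3 of 7 were higher and 2 lower (median -0.01). These are 42.9% and 28.6%, beside 33.6% and 34.1% of all genes tested. Cdkn1a, the kinase inhibitor p21 and the classical p53 target, averaged 205 ± 8.61 CPM in DMSO, against 225 ± 6.31 CPM in baicalin (SD, n = 3, log2 fold change 0.13, adjusted p = 0.00316). That small rise was not stable, since it was lost with library size alone (0.01, adjusted p = 0.901) and was a fall with the length and GC trends removed (-0.12, adjusted p = 0.00386). The stress kinase gene Plk3 rose 2.19-fold, from 6.38 ± 1.21 to 13.99 ± 1.10 CPM, and Gadd45a, a growth arrest gene, 1.43-fold. Btg2, an antiproliferative cofactor, fell 1.41-fold and the microtubule-associated Psrc1 1.455-fold.

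Among targets that promote cell death, 3 of 10 tested were higher and 5 lower (median -0.25). These are 30% and 50%, beside 33.6% and 34.1% of all genes tested. The TRAIL receptor gene Tnfrsf10b rose 1.55-fold, from 24.2 ± 1.45 to 37.6 ± 3.07 CPM. Bax, a pore-forming BCL2 family member, rose 1.22-fold (adjusted p = 1.18e-06), a call lost with the length and GC trends removed (log2 fold change -0.01, adjusted p = 0.807). Eda2r, the ectodysplasin receptor, fell 2.065-fold, from 46.5 ± 3.15 to 22.5 ± 2.40 CPM, Apaf1, the core of the apoptosome, 1.43-fold and Siva1 1.35-fold. Perp and Pmaip1 had no read in any library, which allows up to 0.180 CPM.

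Of the repair genes, Ercc5, an excision repair endonuclease, fell 1.598-fold, from 46.4 ± 1.34 to 29.0 ± 3.36 CPM (adjusted p = 4.18e-12). Rrm2b, the p53-inducible subunit of ribonucleotide reductase, fell 1.56-fold and the translesion polymerase gene Polk 1.485-fold. The call of Ddb2, 1.75-fold lower, is uncertain: Acp2, on the opposite strand, shares 652 exonic bases with it and had 8650 reads against 936. In the list of metabolism and stress defence (median 0.53), Ddit4, an inhibitor of mTORC1, rose most, 2.33-fold, from 99.3 ± 9.19 to 232 ± 2.11 CPM (adjusted p = 2.51e-23). The glutathione peroxidase gene Gpx1 rose 1.68-fold, the epoxide hydrolase gene Ephx1 1.57-fold and the fructose bisphosphatase gene Tigar 1.46-fold. The falls, of Aldh4a1 and Cpt1c, are named after their values were seen.

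**Figure D5:**
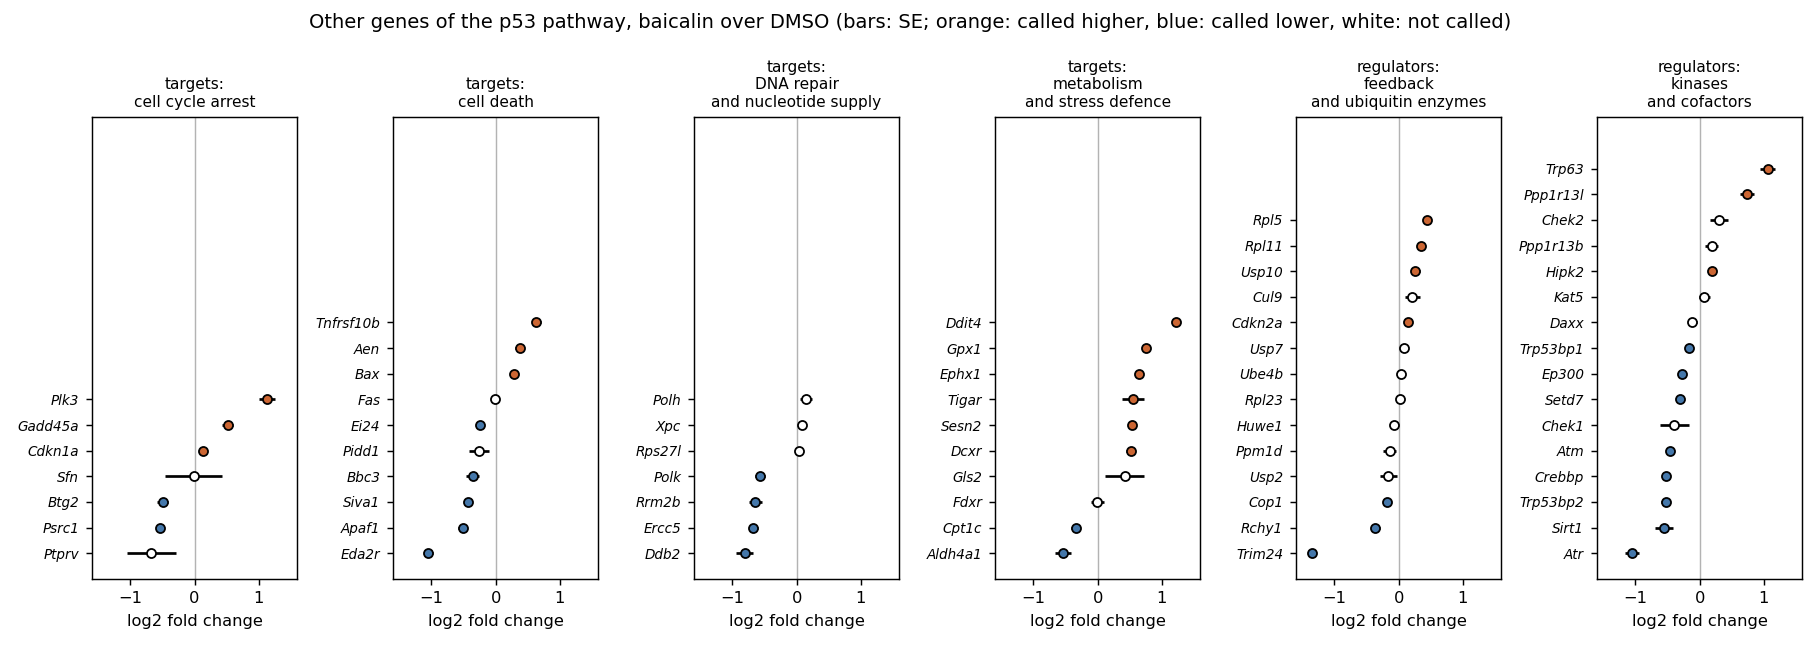
Log2 fold change (baicalin over DMSO) of the other tested genes of the p53 pathway, by list, with bars for the SE. Orange points were called higher, blue points lower and white points not called, by edgeR's quasi-likelihood test. Targets of metabolism and stress defence lie mostly right of 0 and 4 of the 7 of DNA repair were called lower, and the calls of Cdkn1a, Cdkn2a, Cop1 and Trp53bp1 turn with the length and GC trends removed.

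Of 14 enzymes and partners that act on the MDM2 and p53 proteins, 4 were called higher and 3 lower (median 0.03). Their shares, 28.6% and 21.4%, stand beside 33.6% and 34.1% of all genes tested. The counts of this list depended on the scaling. They were 7 higher and 5 lower once the length and GC trends were removed, and 2 higher and 7 lower with library size alone. Trim24, a ubiquitin ligase of p53, fell 2.53-fold, from 96.4 ± 5.37 to 38.0 ± 1.14 CPM (adjusted p = 1.46e-28), and the ligase gene Rchy1 1.29-fold. Rchy1 shares 680 exonic bases with Thap6 on the opposite strand, which had 419 reads against 3570, and Rpl5 shares 953 with Fam69a, with 3684 against 96271. The ribosomal protein genes Rpl5 and Rpl11, whose products bind MDM2, rose 1.36-fold and 1.28-fold, the second call being lost with the length and GC trends removed (log2 fold change 0.05, adjusted p = 0.148). Cdkn2a averaged 408 ± 3.39 CPM in DMSO, against 451 ± 7.52 CPM in baicalin (log2 fold change 0.14, adjusted p = 5.65e-04), a call lost with library size alone (0.02, adjusted p = 0.671) and turned with the length and GC trends removed (-0.18, adjusted p = 5.16e-06). The phosphatase gene Ppm1d, itself a p53 target, was not called (log2 fold change -0.14, adjusted p = 0.207), and was called lower with library size alone (-0.27, adjusted p = 0.0159) and with those trends removed (-0.26, adjusted p = 0.018).

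Of 16 tested kinases and cofactors of p53, 3 were higher and 8 lower (median -0.22). Their shares, 18.75% and 50%, stand beside 33.6% and 34.1% of all genes tested. With the length and GC trends removed 4 of the list were higher and 5 lower. The damage kinase gene Atr fell 2.07-fold, from 20.3 ± 1.89 to 9.76 ± 1.78 CPM, and the deacetylase gene Sirt1 1.475-fold. Ppp1r13l, which encodes the p53 inhibitor iASPP, rose 1.67-fold, and the p53 family member Trp63 rose 2.085-fold, from 7.16 ± 0.39 to 14.9 ± 0.61 CPM. Trp63 averaged 1.34 FPKM, against 22.7 FPKM for Trp53, and the third family member Trp73 was not tested, at no more than 0.0395 CPM on average in either group.

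Paralogs of the 10 genes were also split. Of 14 tested, 8 were called higher and 4 lower (57.1% and 28.6%), beside 33.6% and 34.1% of all genes tested. Their median log2 fold change was 0.38, beside 0.00 for all genes tested. Trp53inp2, the relative of Trp53inp1, rose 2.03-fold, from 73.35 ± 1.12 to 149 ± 1.97 CPM (adjusted p = 1.12e-26), while Trp53inp1 stood 3.22-fold lower. Phlda1 rose 5.42-fold, from 4.85 ± 0.71 to 26.2 ± 3.17 CPM, and Plk3, a relative of Plk2, rose as given above. Zmat1 fell 4.71-fold, from 17.1 ± 1.84 to 3.62 ± 0.15 CPM. Of the sestrins, named after their values were seen, Sesn2 was higher (log2 fold change 0.54, adjusted p = 8.09e-14) and Sesn3 lower (-0.70, adjusted p = 1.34e-21), beside -1.08 for Sesn1. Among the relatives of Slc35e3, also named after their values were seen, Slc35e1 and Slc35e4 were called higher (0.46 and 0.44) and Slc35e2 lower (-0.44). They averaged 17.96, 17.2 and 3.19 FPKM, against 1033 FPKM for Slc35e3.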

How the data were processed

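Poly-A RNA of 6 samples was sequenced from NEBNext Ultra libraries, per the labels' protocols. The authors deposited raw gene counts from featureCounts 1.5.0-p3 (per the series design text) on mm10 (per the submitters' processing notes). The sources used here name no aligner, annotation or strand setting. FPKM, which the authors derived from those counts and gene lengths per the same text, stands beside them in the table. No per-sample column was left unmatched (0). Positions come from GENCODE M21, on the same assembly, which holds 54409 of the 54532 identifiers.

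The main test was edgeR's quasi-likelihood test (edgeR 4.0.16 in R 4.3.3, filterByExpr, TMM factors, robust), with no covariate besides treatment. Calls have a Benjamini-Hochberg adjusted p under 0.05 over all genes, and adjusted p-values without a named alternative are from it. The test was checked on simulated counts in which few genes changed, so its scaling where most genes change was not checked. The alternatives were DESeq2 1.42.0, limma-voom and limma-trend on FPKM (limma 3.58.1, pseudocounts 1 and 0.1, FPKM of at least 1 in 3 libraries). RLE factors, library size alone, other count filters, the replicate block, each library left out and another window were also run. For the rank of Mdm2, TMM-scaled counts per kilobase of the annotated exons were used as well. Lowess removal of length and GC trends (span 0.3) was added after seeing the data. The trends were fitted in each library to deviations from the mean over all libraries. Any difference between the groups that goes with length or GC content is therefore removed too. Members, lists and tests were chosen with earlier results of these data known. Most genes were named by a rule: the 10 members, tested genes within 1 Mb of Mdm2, and Cdkn1a, Bax, Ppm1d and Cdkn2a. The rule added up to 4 called genes a list with at least 5 CPM and the largest change, and the 5 genes closest to Mdm2 in level. Only some genes whose exons overlap a named gene are given above. Others, on the opposite strand, include Tubgcp4 at Trp53bp1 (2541 reads against 6756), Gm16794 at Atr (85 against 1603), E230016M11Rik at Gadd45a (158 against 3116) and Gm16023 at Slc35e2 (96 against 2203). Depth was alike in all libraries, and 3 reads, the limit a count of 0 allows, equal 0.162 to 0.180 CPM (counting error only). Replicates differed by more than sampling noise (chi-square per degree of freedom from 2.71 to 4.13).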

Additional observations from a re-analysis of the deposited data

How the results depend on the processing

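With library size alone and no composition factor, the all-gene median moved to -0.13 (log2). Under it 4 regulators of p53 were called higher and 17 lower (7 and 11 with TMM), and 6 neighbours of Mdm2 lower (3 with TMM). With the length and GC trends removed, 11 regulators were called higher and 6 neighbours lower, and Phlda3 turned to -0.058. The cause was not tested. In the 500 kb window 1 neighbour was called higher, as fewer genes lie in it. All other counts for all genes, other p53 targets, regulators, paralogs and neighbours stayed within 1.5 times, under every alternative run, including each library left out. Of the 10 genes, only Phlda3 changed sign in any of the 16 alternatives, and Zmat3 ranged from -0.41 to -0.01. With the length and GC trends removed, Trp53inp1 (-1.17), Mdm4 (-1.27), Ccng1 (-0.62), Trp53 (0.46) and Plk2 (1.02) differed less than in the main fit. Slc35e3 (-0.19), Mdm2 (-0.31) and Sesn1 (-1.12) differed more. The rank of Mdm2 by mean level was 20, and 17 to 21 with a library left out. It was also 20 with TMM-scaled counts per kilobase of the annotated exons. The reads and FPKM values of the members show that FPKM rests on these same lengths, so this was no separate check of length. Libraries of equal replicate number correlated little in their deviations (0.0348, 0.0367 and -0.00239). Replicates 1 and 2 correlated best with their own number and replicate 3 did not. With 3 libraries a group this cannot decide whether the libraries were paired. With the replicate block 4660 genes were called higher and 4731 lower (4618 and 4676 without), 12 and 13 other p53 targets, 7 and 11 regulators, 8 and 4 paralogs and 3 and 3 neighbours. Genes near the count floor, such as Lep or Trp73, could not be tested at this depth.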
